A study of Rattus norvegicus with 6 samples.

Results

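The genes described here are the ephrins and Eph receptors, the semaphorins of classes 3 to 7 with their plexin and neuropilin receptors, the Slits and Robos, and the netrins with their Unc5 receptors. They were chosen by gene name from the 43035 features of the count table, which gave 67 genes. Of these, 38 had at least 10 counts in 3 or more libraries and 29 did not. RNA was sequenced from cardiomyocytes of neonatal Sprague-Dawley rats (postnatal day 1 in the sample labels) in primary culture, transfected with a scrambled siRNA (si-NC) or an siRNA against DYRK1A (si-DYRK1A) and collected 48 h later, with 3 libraries per group that the labels call biological replicates. Such siRNAs trigger cleavage of mRNAs with a matching sequence, and the protein DYRK1A is a dual-specificity kinase. Both groups received the same transfection reagent, the labels name no genetic modification, and the cells were enriched by letting faster-attaching cells settle out, so that other heart cells may remain.

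These families were named for steering growing axons, and they also act in the heart. Ephrins are held at the surface of one cell, A-type by a lipid anchor and B-type by a membrane span, and bind Eph receptor tyrosine kinases on the next cell, so that signals run in both directions. Class 3 semaphorins are secreted and mostly act through neuropilins paired with plexins, whereas the other classes measured here are anchored to the membrane. Slits are secreted ligands of Robo receptors, and netrins are laminin-related ligands of DCC and Unc5 receptors. Semaphorin 3C is known for its part in dividing the cardiac outflow tract, and ephrin-B2 for marking arterial endothelium.

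The targeted gene was looked at first. The annotated Dyrk1a row held 0 to 3 counts in each library. An unannotated transcript of the same strand that spans it stood at 74.5, 77.7 and 80.9 CPM (counts scaled by library size) in si-NC 1, 2 and 3 and at 85.4, 80.1 and 81.7 CPM in the libraries labelled si-DYRK1A 1, 2 and 3 (log2 fold change 0.08, SE 0.0575, edgeR adjusted p = 0.374). Counts over Dyrk1a were therefore not lower in the second group, whose libraries are called here by their label. These counts measure RNA. The paper assessed knockdown at the protein level, by DYRK1A immunoblot of neonatal cardiomyocytes 48 h after transfection, and describes the protein as knocked down. Total counts ran from 10325074 to 11921772 per library, and unannotated transcripts held 17.2% to 17.5% of them.

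Among the 38 guidance genes tested, 4 were higher and 8 were lower in the libraries labelled si-DYRK1A at an edgeR adjusted p below 0.05, and 26 were not called. Over all 15513 features tested, 15.2% were called, 8.03% as higher and 7.19% as lower. Of the 9707 annotated features tested, to which all 38 guidance genes belong, 17.3% were called. The called guidance genes made up 31.6% of those tested, and whether that share differs from the shares over all or annotated features was not tested. The 4 that rose were the receptors Epha8, Epha4 and Ephb6 and the ligand Efnb2. The 8 that fell were the receptors Ephb2, Epha3, Epha2 and Plxna3 and the ligands Efna1, Sema3e, Sema4a and Sema4f. All 38 passed the filter on low counts, and each of the 12 called genes had at least 10 counts in all 6 libraries, so that none was tested only through the group in which it was high. The median log2 fold change of the 38 was -0.08, with 16 above and 22 below 0, beside a median of 0.002 and 49.6% below 0 over all features tested. The 3 libraries of one group all lay above or all lay below those of the other for 20 of the 38, or 52.6%, against 31.5% of all features tested. The fold changes of the 38 are plotted by family.

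**Figure D1:**
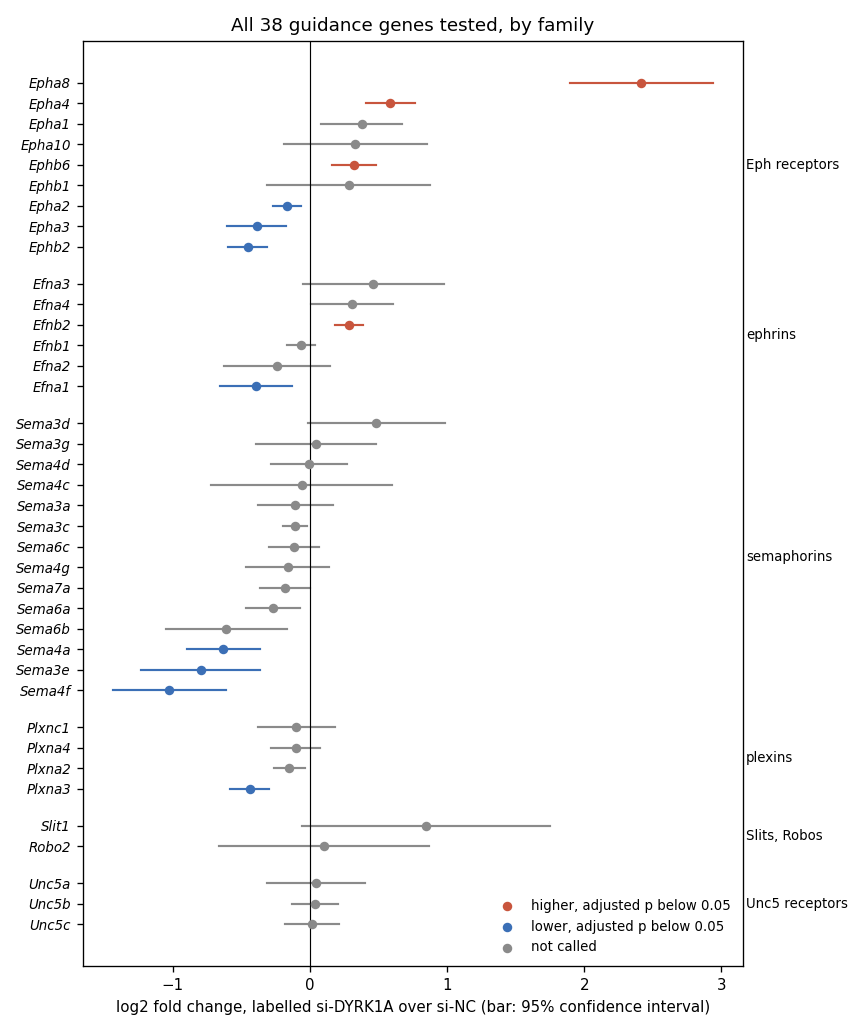
Log2 fold change of each of the 38 guidance genes tested, libraries labelled si-DYRK1A over si-NC, with the unadjusted 95% confidence interval as a bar (x axis, log2) and genes grouped by family (y axis). Epha8 stands at 2.42, far to the right of the others, while 12 of the 14 semaphorins and the 4 plexins tested lie below 0 on their annotated rows.

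Markers of cardiomyocytes and of other heart cells also differed between the groups. In the endothelial list, 3 of 8 tested genes fell, namely Tek (-0.75 log2), Tie1 (-0.43 log2) and Cdh5 (-0.31 log2), while Kdr (-0.01 log2, adjusted p = 0.954), Emcn, Erg, Egfl7 and Esam were not called, and the summed level of the 9 listed genes found was 190.6 to 208 CPM in si-NC and 161 to 170.0 CPM in the libraries labelled si-DYRK1A. In the epicardial list, 3 of 4 fell (Upk3b, Msln and Wt1; sum 127.8 to 138.5 CPM against 123.8 to 124.1 CPM) and Tbx18 was listed at 0. In the Schwann and neural list, 2 of 6 fell (Tubb3, -0.72 log2, and S100b, -0.74 log2; sum 81.3 to 87.4 CPM against 54.5 to 63.3 CPM). Of 6 macrophage genes tested, 2 rose (Lyz2 and Cd163; sum 193 to 202 CPM against 208 to 240 CPM) and Cd68 was listed at 0. The other 4 were not called, with Adgre1 at -0.54 log2 without overlap (edgeR adjusted p = 0.168), Csf1r at -0.13, C1qa at 0.15 and C1qb at 0.07. Lum rose among 5 fibroblast genes tested, while Col1a1, a fibrillar collagen, was at -0.37 without overlap (edgeR adjusted p = 0.0869, DESeq2 adjusted p = 0.0137) and Pdgfra and Ddr2 were listed at 0 (sum 21520.0 to 26240.0 CPM against 20350.0 to 21090.0 CPM), and neither of 2 mural genes tested was called (sum 145 to 185 CPM against 183 to 188 CPM). Among the cardiomyocyte markers, Actc1 and Nppa rose and made up nearly all of the sum (17250.0 to 17830.0 CPM against 20080.0 to 21040.0 CPM). Tnnt2 was not called, and Tnni3, Myh6, Myh7 and Myl2 were listed at 0. Unannotated transcripts over these 4, and over Pdgfra, Ddr2 and Tbx18, held counts in every library, so that these zeros do not show absence, while that over Cd68 held none. The same transcript lay over Myh6 and Myh7, so that its counts cannot be assigned to either gene. The part of these cell types in the results below was not tested. In bulk samples, fewer cells of a type and less RNA per cell cannot be told apart.

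The Eph receptors moved in both directions. Of 14 genes, 9 were tested, 3 rose and 3 fell. The largest change was that of Epha8 (chr5:155295314-155316495 on the minus strand in Rnor_6.0), an A-type receptor known from the developing midbrain. Epha8 held 10, 15 and 12 counts in si-NC 1, 2 and 3 and 63, 63 and 69 in those labelled si-DYRK1A, so that every library of the second group lay above every si-NC library. On the normalized scale it rose from 1.08 ± 0.167 CPM to 5.82 ± 0.238 CPM (SD, n = 3 each), or 5.34-fold (log2 fold change 2.42, SE 0.251, edgeR adjusted p = 6.37e-07). Its level stayed low, with a mean of 1.96 FPKM (fragments scaled by gene length and library) in the libraries labelled si-DYRK1A, and no other feature in the count table overlapped it.

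Epha4, a receptor that binds both A-type and B-type ephrins, stood at 28.4, 24.7 and 25.7 CPM in si-NC 1, 2 and 3 and at 40.5, 36.3 and 41.3 CPM in the libraries labelled si-DYRK1A 1, 2 and 3. The lowest library of the second group lay above the highest si-NC library, and the gene rose 1.503-fold (log2 fold change 0.59, SE 0.0858, edgeR adjusted p = 5.07e-05). Ephb6, a receptor without kinase activity, stood at 34.5, 32.5 and 32.1 CPM in the si-NC libraries against 42.6, 39.8 and 41.5 CPM in those labelled si-DYRK1A (log2 fold change 0.32, SE 0.0763, edgeR adjusted p = 0.00519). The rise of Ephb6 was smaller than that of Epha4, and again the groups did not overlap.

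A set of 3 Eph receptors fell. Ephb2, a B-type receptor, stood at 60.98, 62.7 and 58.4 CPM in the si-NC libraries against 43.4, 46.4 and 43.3 CPM in those labelled si-DYRK1A. All libraries of the second group were below the si-NC libraries, and the gene fell from 60.7 ± 2.21 CPM to 44.4 ± 1.77 CPM (log2 fold change -0.45, SE 0.0683, edgeR adjusted p = 7.37e-05). Epha3, an A-type receptor with a part in forming the endocardial cushions, stood at 26.7, 25.8 and 25.9 CPM in the si-NC libraries against 21.4, 21.8 and 16.8 CPM in those labelled si-DYRK1A (log2 fold change -0.39, SE 0.103, edgeR adjusted p = 0.0122). Its lowest value was that of the library labelled si-DYRK1A 3, and without that library the adjusted p was 0.0988. Without si-NC 1 it was 0.0512. Epha2, the main receptor of ephrin-A1, stood at 145, 146 and 139.6 CPM in the si-NC libraries against 124, 129 and 130.0 CPM in those labelled si-DYRK1A (log2 fold change -0.16, SE 0.04798, edgeR adjusted p = 0.0219). The difference in Epha2 was small, and its adjusted p was 0.0536 by DESeq2 and 0.0504 to 0.0946 when any library other than si-NC 3 was left out.

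The other 3 Eph receptors tested had positive fold changes that were not called. Epha1 was at 0.38 on the log2 scale (adjusted p = 0.0788, groups not overlapping), Epha10, which lacks kinase activity, at 0.33 (adjusted p = 0.431), and Ephb1 at 0.28 (adjusted p = 0.573).

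Epha8 and Ephb2 are neighbours on chromosome 5, both on the minus strand, with 90.9 kb between them. Only the complement genes C1qb, C1qc and C1qa lie in between in the count table, with log2 fold changes of 0.07, 0.28 and 0.15, none of them called (adjusted p = 0.87, 0.306 and 0.331). Thus the receptor gene upstream rose, the one downstream fell, and the 3 genes between them were not called, as the map of the region shows.

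**Figure D2:**
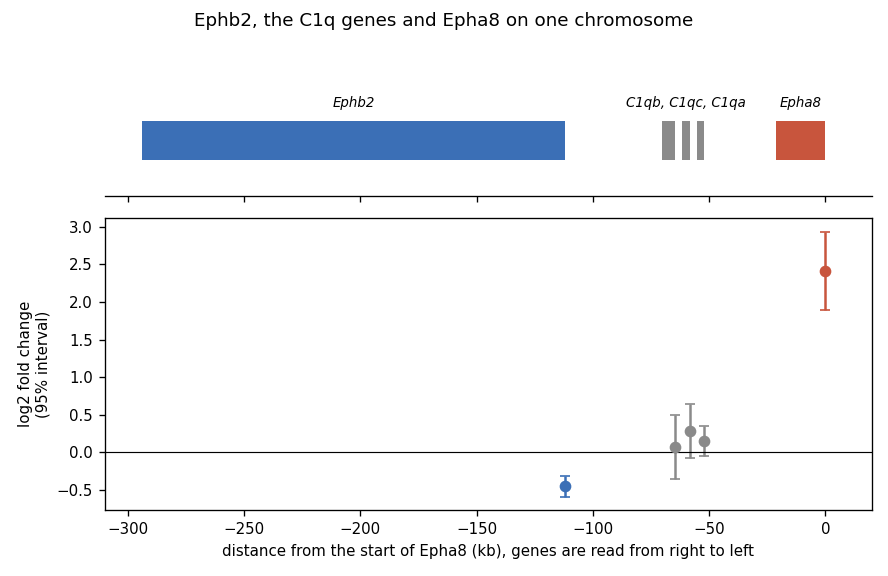
The top panel maps Ephb2, the C1q genes and Epha8 to scale by distance from the start of Epha8 (x axis, kb), and the lower panel gives the log2 fold change of each gene at its start with the 95% confidence interval (y axis). Epha8 is at 2.42 and Ephb2 at -0.45, with the C1q genes between 0.07 and 0.28.

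Promoter sequences of RefSeq (build GRCr8, from 250 bases before to 50 bases after each gene's start) were matched by symbol to 52 of the 67 genes, and to 11 of the 12 called genes, all but Epha4, so that 3 of the 4 genes that rose are covered. Because this build differs from that of the counts, its positions are not those given above. The promoters of the neighbours Epha8 (chr5:154476917-154477216, minus strand) and Ephb2 (chr5:154360375-154360674, minus strand) are shown with that of Efnb2 (chr16:87484965-87485264, plus strand), because Epha8 and Efnb2 rose and had the most CpG dinucleotides among the called genes. CpG dinucleotides are in capitals.
Epha8: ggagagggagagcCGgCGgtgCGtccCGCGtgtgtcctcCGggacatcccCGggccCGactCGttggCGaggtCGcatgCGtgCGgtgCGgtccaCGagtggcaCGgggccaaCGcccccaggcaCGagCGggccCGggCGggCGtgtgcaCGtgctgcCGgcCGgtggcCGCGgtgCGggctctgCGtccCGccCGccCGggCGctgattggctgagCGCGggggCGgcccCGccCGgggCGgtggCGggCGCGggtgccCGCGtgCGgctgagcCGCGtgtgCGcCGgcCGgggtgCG
Ephb2: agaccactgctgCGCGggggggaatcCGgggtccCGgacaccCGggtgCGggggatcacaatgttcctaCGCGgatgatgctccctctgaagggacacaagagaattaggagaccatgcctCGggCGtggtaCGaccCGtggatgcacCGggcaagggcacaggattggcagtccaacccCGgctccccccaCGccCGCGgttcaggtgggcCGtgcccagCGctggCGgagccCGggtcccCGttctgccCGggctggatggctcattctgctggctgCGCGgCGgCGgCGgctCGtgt
Efnb2: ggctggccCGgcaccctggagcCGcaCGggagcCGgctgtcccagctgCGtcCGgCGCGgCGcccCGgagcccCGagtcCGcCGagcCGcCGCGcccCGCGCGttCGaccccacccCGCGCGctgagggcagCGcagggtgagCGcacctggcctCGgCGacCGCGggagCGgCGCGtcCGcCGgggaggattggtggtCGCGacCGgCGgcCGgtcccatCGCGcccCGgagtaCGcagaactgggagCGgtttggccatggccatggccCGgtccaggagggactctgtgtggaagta

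The Epha8 promoter held 51 CpG dinucleotides in 300 bases, more than 99.4% of the 33469 promoters in the RefSeq table. That of Efnb2 held 45, that of Ephb6 20 and that of Ephb2 29. High counts were also found outside the called genes, with 48 for Plxnd1 and 45 for Plxnb1, neither tested on its own row, and 39 for Efna2, which was not called. The 8 promoters of genes that fell held 3 (Sema4a) to 29 (Ephb2) CpG dinucleotides, with a median of 17, so that the promoter of Ephb6 lay within their range. The median was 18 over the 53 promoters matched, 2 of them of Robo1, and 7 over all promoters.

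Motifs were searched on both strands of the same windows. The 10-base palindrome at which DYRK1A has been found on chromatin was in none of the 53 promoters, and in 0.373% of all promoters. The cyclic AMP response element TGACGTCA was in 1.83% of all promoters and among the guidance genes in that of Epha2 alone. The CHR element TTTGAA of cell cycle genes, which was in 18.3% of all promoters, was in those of Epha2, Nrp2, Sema3e and Sema6b. The EGR1 site GCGTGGGCG was in 0.544% of all promoters and in those of Efna3, Plxna2 and Sema6d. The Epha2 promoter (chr5:158888379-158888678, plus strand) is printed because it held 2 of the motifs, which are in capitals and begin 238 bases (TTTGAA) and 52 bases (TGACGTCA) before the start. The motifs do not overlap.
Epha2: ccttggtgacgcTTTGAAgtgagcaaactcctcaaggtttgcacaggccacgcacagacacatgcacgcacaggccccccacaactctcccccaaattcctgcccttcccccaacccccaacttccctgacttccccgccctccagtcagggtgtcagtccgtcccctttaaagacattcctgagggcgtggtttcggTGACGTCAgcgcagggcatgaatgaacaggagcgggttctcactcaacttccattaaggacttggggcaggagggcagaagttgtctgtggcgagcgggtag

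Among the ephrins, 1 of 6 tested rose and 1 fell. Efnb2 (ephrin-B2, chr16:86631064-86675049) stood at 140.5, 148 and 146 CPM in si-NC 1, 2 and 3 and at 185, 167 and 177 CPM in the libraries labelled si-DYRK1A 1, 2 and 3. It rose from 145 ± 3.995 CPM to 176 ± 8.73 CPM (log2 fold change 0.28, SE 0.0495, edgeR adjusted p = 3.45e-04), and the lowest library of the second group exceeded the highest si-NC library. Efnb1, the related B-type ligand, stood at 146, 140.4 and 146 CPM in the si-NC libraries against 135, 137 and 142 CPM in those labelled si-DYRK1A, with overlapping groups (log2 fold change -0.06, SE 0.0477, edgeR adjusted p = 0.427). Efna1, the A-type ligand that binds Epha2, fell from 13.4 ± 0.579 CPM to 10.2 ± 0.723 CPM (log2 fold change -0.40, SE 0.126, edgeR adjusted p = 0.0366). Its library values were 12.9, 13.2 and 14.05 CPM in the si-NC libraries against 10.99, 9.61 and 9.95 CPM in those labelled si-DYRK1A. This call was lost with DESeq2 (adjusted p = 0.146) and when any library other than that labelled si-DYRK1A 1 was left out (0.0607 to 0.138).

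Efna1 lies beside Efna3 and Efna4 on chromosome 2, with 41.6 kb and then 10.7 kb between them. Efna3 was at 0.46 and Efna4 at 0.31 on the log2 scale, and in both the libraries labelled si-DYRK1A lay above the si-NC libraries, but neither was called (adjusted p = 0.236 and 0.163). Efna2 was at -0.24 with overlapping groups (adjusted p = 0.447).

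**Figure D3:**
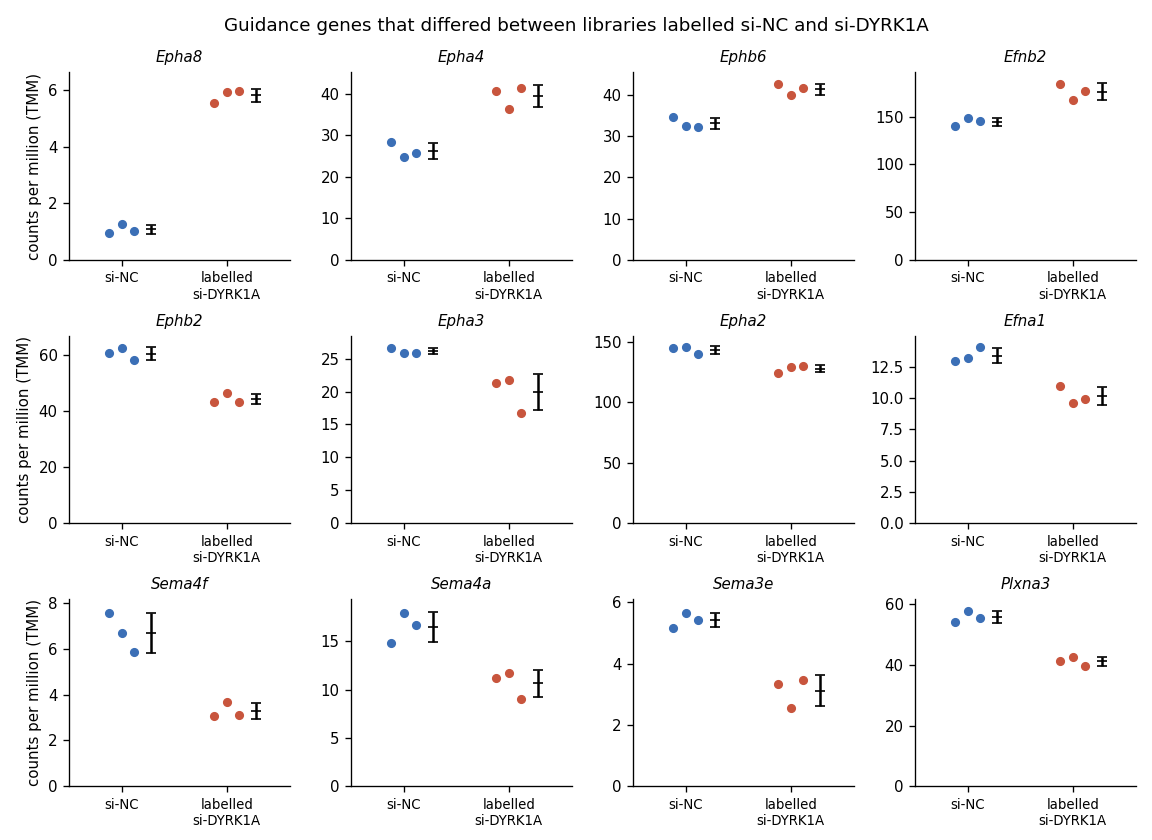
CPM (y axis, from 0) of the 12 called guidance genes, with 1 point per library in si-NC and in the libraries labelled si-DYRK1A (x axis) and the mean ± SD beside them (n = 3). In each gene the points of the 2 groups do not overlap, and Epha8 goes from at most 1.27 CPM to at least 5.54 CPM.

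Of 20 semaphorin genes, 14 were tested, and 3 fell, none rose and 11 were not called. Negative fold changes were found for 12 of the 14, with a median of -0.14, and for 10 of 16 when counts of covering unannotated transcripts, described further on, were added. Sema4f, a membrane-bound semaphorin of the nervous system, stood at 7.57, 6.68 and 5.85 CPM in the si-NC libraries against 3.08, 3.67 and 3.12 CPM in those labelled si-DYRK1A, and fell 2.03-fold (log2 fold change -1.02, SE 0.199, edgeR adjusted p = 0.00101). Sema4a, a membrane-bound semaphorin also known from immune cells, stood at 14.9, 17.9 and 16.7 CPM in the si-NC libraries against 11.2, 11.8 and 9.09 CPM in those labelled si-DYRK1A (log2 fold change -0.63, SE 0.128, edgeR adjusted p = 0.00152). Both genes had lower values in each library of the second group than in any si-NC library. For Sema4a the adjusted p with limma on log2(FPKM + 1) was 0.0504.

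Sema3e, a secreted semaphorin that binds plexin D1 without a neuropilin, stood at 5.18, 5.67 and 5.43 CPM in the si-NC libraries against 3.34, 2.54 and 3.46 CPM in those labelled si-DYRK1A (log2 fold change -0.80, SE 0.209, edgeR adjusted p = 0.0117). It held 27 to 67 counts per library, its adjusted p was 0.0589 by DESeq2, and it was 0.0738 without the library labelled si-DYRK1A 2. Sema3c, the most abundant guidance gene with 104 ± 4.44 FPKM in si-NC, stood at 513, 524 and 556 CPM in si-NC 1, 2 and 3 and at 501, 488 and 489 CPM in the libraries labelled si-DYRK1A 1, 2 and 3. All libraries of the second group were lower, but the difference of -0.11 on the log2 scale was not called (95% confidence interval -0.20 to -0.02, edgeR adjusted p = 0.0977). Among the other class 3 genes, Sema3d was at 0.49 (adjusted p = 0.198), Sema3g at 0.04 and Sema3a at -0.11, with overlapping groups in each. A covering transcript held 87.5% of the counts over Sema3d, and with it added Sema3d was at 0.18 (edgeR adjusted p = 0.27).

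On their annotated rows, the 9 membrane-bound semaphorins tested had log2 fold changes from -1.02 (Sema4f) to -0.0036 (Sema4d), and that of Sema4d was far smaller than its SE of 0.134. With covering transcripts added, 7 of 11 were below 0, and Sema5b (0.55), Sema4b (0.08), Sema4d (0.05) and Sema4c (0.0052) were above 0, none of them called (adjusted p = 0.173, 0.844, 0.834 and 0.992). Sema6a, a ligand of plexins A2 and A4, stood at 32.1, 26.98 and 27.4 CPM in the si-NC libraries against 21.9, 24.6 and 25.2 CPM in those labelled si-DYRK1A, without overlap but not called (log2 fold change -0.27, SE 0.0955, edgeR adjusted p = 0.0608). It was called in 4 of the 18 alternatives run for it. Sema7a, which is lipid-anchored and binds plexin C1 and integrins, stood at 33.9, 31.1 and 28.8 CPM in the si-NC libraries against 26.5, 27.2 and 28.9 CPM in those labelled si-DYRK1A (log2 fold change -0.18, SE 0.0881, edgeR adjusted p = 0.185). Its groups overlapped. Sema6b was at -0.61 (adjusted p = 0.0565, no overlap), Sema4g at -0.16, Sema6c at -0.12 and Sema4c at -0.06.

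Of the plexins, which are the signalling receptors of semaphorins, 4 of 9 were tested and 1 fell. Plxna3, a partner of neuropilins in class 3 signalling, stood at 53.98, 57.9 and 55.4 CPM in si-NC 1, 2 and 3 and at 41.3, 42.6 and 39.6 CPM in the libraries labelled si-DYRK1A 1, 2 and 3. Each library of the second group was below all si-NC libraries, and the gene fell from 55.8 ± 2.003 CPM to 41.2 ± 1.52 CPM (log2 fold change -0.44, SE 0.0698, edgeR adjusted p = 1.32e-04). Plxna2 stood at 135.8, 135.5 and 122.8 CPM in the si-NC libraries against 117.3, 122.8 and 115.5 CPM in those labelled si-DYRK1A, where the lowest si-NC library and the highest library of the second group were almost equal, and was not called (log2 fold change -0.15, SE 0.0528, edgeR adjusted p = 0.0639). The other plexins, Plxna4 at -0.10 and Plxnc1 at -0.10 overlapped between groups (adjusted p = 0.479 and 0.704). With covering transcripts added, 3 of 7 plexins were below 0 and 4 above, the latter being Plxna1 (0.26), Plxnb1 (0.18), Plxnd1 (0.10) and Plxnc1 (0.03), none of them called.

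Of the Slits, Robos, netrins and Unc5 receptors, 5 of 14 genes were tested and none was called by edgeR. None of them had an unadjusted p below 0.05, and DESeq2 called none of the 3 for which it gave an adjusted p. Slit1, a secreted Robo ligand, held 7 to 15 counts per library and was at 0.85 on the log2 scale (95% confidence interval -0.06 to 1.75, adjusted p = 0.216), and its receptor gene Robo2 at 0.11 (adjusted p = 0.896). Unc5b, the netrin receptor of blood vessels, stood at 118, 136 and 106 CPM in the si-NC libraries against 119, 127 and 125 CPM in those labelled si-DYRK1A. The 3 Unc5 genes differed by 0.02 (Unc5c) to 0.05 (Unc5a), with adjusted p from 0.809 to 0.93. For Unc5b the 95% confidence interval ran from -0.13 to 0.21.

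Levels between genes were compared per length, in FPKM of the annotated rows. After Sema3c, the highest means in si-NC were Efnb1 (43.9 ± 0.913), Epha2 (36.4 ± 0.835), Efnb2 (33.9 ± 1.04) and Unc5b (21.3 ± 2.72 FPKM). Ephb2 (12.1 FPKM), Sema7a (11.9 FPKM) and Plxna2 (11.8 FPKM) followed and lay within 1 SD of each other, and Sema6a (9.01 FPKM) and Efna1 (8.67 FPKM) closed the first 10. Transcripts over genes at or near 0 in their own rows reached similar levels, with 13.2 FPKM in si-NC for that over Efna5 and 11.4 FPKM for that over Nrp2. In the libraries labelled si-DYRK1A the mean of Efnb2 was 41.1 FPKM and that of Epha2 32.4 FPKM, so that these genes changed places.

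**Figure D4:**
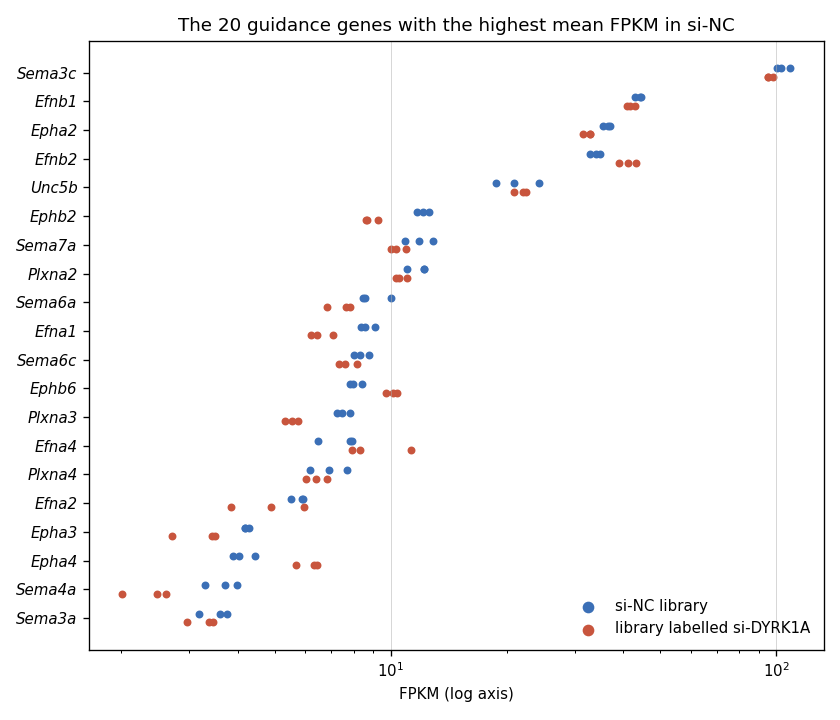
FPKM on a log axis (x axis) of the 20 guidance genes with the highest mean in si-NC (y axis), with 1 point per si-NC library and 1 per library labelled si-DYRK1A. Sema3c is highest at about 104 FPKM, and the points of Efnb2 and Ephb6 shift right while those of Ephb2, Plxna3 and Sema4a shift left.

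The 29 genes not tested had at most 9 counts in any library, and 16 of them had none at all. In 23 of the 29, all 16 included, an unannotated transcript of the same strand covered at least 50% of the gene, so that a listed 0 does not show that a gene was silent. Of these 23 transcripts, 20 were tested, 3 rose and 1 fell, beside 11.7% called among all unannotated transcripts. They are named after their values were seen. The transcript over Nrp2, a co-receptor of class 3 semaphorins and of VEGF-C, carried the CUB, MAM and F5/8 type C domains of a neuropilin and stood at 128, 130.3 and 119 CPM in si-NC 1, 2 and 3 and at 163, 165 and 177 CPM in the libraries labelled si-DYRK1A 1, 2 and 3. It rose from 126 ± 5.86 CPM to 168 ± 7.24 CPM (log2 fold change 0.42, SE 0.0513, edgeR adjusted p = 5.11e-06), with no overlap.

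Transcripts over the netrin genes Ntn4 and Ntn1 rose too. That over Ntn4 stood at 5.66, 6.85 and 7.69 CPM in the si-NC libraries against 12.6, 9.61 and 11.1 CPM in those labelled si-DYRK1A (log2 fold change 0.72, SE 0.162, edgeR adjusted p = 0.00386). That over Ntn1 stood at 16.01, 13.6 and 11.96 CPM in the si-NC libraries against 16.01, 19.4 and 20.4 CPM in those labelled si-DYRK1A, where the first libraries of both groups were nearly equal (log2 fold change 0.43, SE 0.125, edgeR adjusted p = 0.0226). DESeq2 gave an adjusted p of 0.0841 for it. Both carried laminin domains. The transcript over Sema3b, which also covers Lsmem2 and carries a Sema domain, fell from 5.89 ± 0.498 CPM to 3.51 ± 1.101 CPM (log2 fold change -0.75, SE 0.226, edgeR adjusted p = 0.0266), with an adjusted p of 0.0882 by DESeq2. When each gene was summed with a covering transcript that spans no other annotated gene, 15 of 51 guidance genes were called, or 29.4%, beside 15.6% of all features, and these were the 12 named above with Nrp2, Ntn1 and Ntn4.

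**Figure D5:**
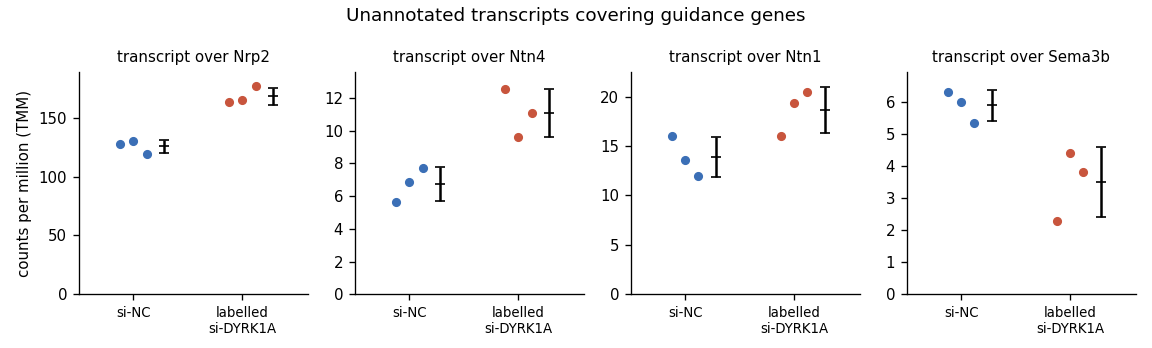
CPM (y axis, from 0) of the unannotated transcripts over Nrp2, Ntn4, Ntn1 and Sema3b, with 1 point per library and the mean ± SD (n = 3). Those over Nrp2 and Ntn4 are higher in each library labelled si-DYRK1A, that over Sema3b is lower, and the groups overlap for Ntn1.

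The remaining 16 tested transcripts over genes that could not be tested themselves were not called. They included those over Robo1 (-0.11, adjusted p = 0.413), Slit2 (-0.12, adjusted p = 0.462), Slit3 (0.01, adjusted p = 0.978), Efna5 (0.0004, adjusted p = 0.998), Ephb4, the venous receptor of ephrin-B2 (-0.15, adjusted p = 0.635), and Plxnb1, the receptor of Sema4d (0.18, adjusted p = 0.249), each on the log2 scale. The transcript over Ntn3 also spans Tbc1d24 and carries domains of that gene only. The transcript over Nrp1 had 0 counts in every library, and those over Sema5a and Sema6d were too low to test. Epha5, Epha6, Ntn5, Plxnb3, Robo3 and Unc5d had no covering transcript. A covering transcript was also present for 6 of the 38 tested genes (Plxnc1, Robo2, Sema3d, Sema4c, Sema4d and Unc5b). That over Robo2 had 0 counts in every library and was not tested, and none of the others was called.

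Other ligands, receptors and intracellular partners of these pathways were taken from a list of 75 genes, of which 43 were tested, 3 rose and 4 fell. Only their annotated rows were used here, and 16 of the 75 had 0 counts in every library. The called genes made up 16.3% of those tested, beside 15.2% over all features and 17.3% over annotated features. Cntn2, an axonal adhesion molecule, fell by 0.50 on the log2 scale (edgeR adjusted p = 6.03e-04). Srgap1, a GTPase activator downstream of Robo (-0.39, adjusted p = 0.0148), Sos1, a guanine nucleotide exchange factor (-0.16, adjusted p = 0.0358), and Fes, a tyrosine kinase (-0.56, adjusted p = 0.0373), fell as well. Dpysl3, of the collapsin response mediator family in semaphorin signalling, rose by 0.35 (adjusted p = 0.00569), Vav3, a guanine nucleotide exchange factor, by 0.35 (adjusted p = 0.00948), and Itga1, an integrin subunit, by 0.14 (adjusted p = 0.0306). DESeq2 called only Cntn2 and Dpysl3 among these 7, and the others had DESeq2 adjusted p from 0.0539 (Itga1) to 0.107 (Sos1).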

How the data were processed

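RNA-seq counts of neonatal rat cardiomyocytes were compared between 3 si-NC libraries and 3 libraries labelled si-DYRK1A. Reads were aligned by the authors with HISAT2 to the Rnor_6.0 rat genome, and the authors deposited raw counts per gene along with FPKM values scaled by gene length. The submitters' processing notes name Bowtie 0.12.2 and build mm8 instead. The counting tool, annotation release and strand setting were not given in the sources used here, so that reads of overlapping genes cannot be told apart. The paper's methods give another library kit and a wider age range than the labels.

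The main test was edgeR 4.0.16 (quasi-likelihood, TMM normalization, filterByExpr with a minimum count of 10 and total of 15) in R 4.3.3, fitted to all features, with Benjamini-Hochberg adjustment over 15513 tested features and a threshold of 0.05. CPM values use the TMM library sizes. Depth was 10325074 to 11921772 counts per library, which sets the precision, and confidence intervals are unadjusted. Counts were also simulated with 15513 features, of which 200 were changed. There edgeR recovered 72% of genes changed by 1 and 38% of those changed by 0.5 on the log2 scale, and 7.05% of its calls were false. In the data 15.2% of features were called, so these rates need not be those of the test reported here. Alternatives were DESeq2 1.42.0, limma 3.58.1 (voom, or log2(FPKM + 1) and log2(FPKM + 0.1) for features above 0.5 FPKM in at least 3 libraries), RLE, library size only, other filters, a replicate block, each library left out, sums with covering transcripts (GenomicRanges 1.54.1) and stricter thresholds. Within-group counts differed beyond sampling noise in every pair. Genes were named if called or among the 10 with the highest si-NC FPKM, and companions if called. Values of the other tested members were added after they had been seen. The members and lists were chosen with earlier results of these data known. P-values cover the spread between these libraries.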

Additional observations from a re-analysis of the deposited data

How the results depend on the processing

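Of the 12 called guidance genes, 4 (Epha8, Epha4, Ephb2 and Plxna3) kept their call and direction in all 18 refits, 8 kept it whichever library was left out, and none changed sign. The main counts were 4 higher, 8 lower and 7 companion genes, beside 1245 higher and 1115 lower over all features. DESeq2 gave 4, 5 and 2, limma on log2(FPKM + 1) 5, 4 and 3, on log2(FPKM + 0.1) 5, 4 and 3 (both without Epha2, Epha3, Sema3e and Sema4a), and on log2(FPKM + 1) without a filter 2, 2 and 0. Calls over all features also fell in these settings, to 813 higher and 733 lower with DESeq2. The limma fits, in the same order, gave 662 and 537, 655 and 525, and 344 and 247. Summed counts gave 7, 8 and 13, beside 1207 higher and 1151 lower over all features. An adjusted p below 0.01 gave 4, 4 and 3, and a log2 fold change of at least 0.5 gave 2, 3 and 2. These stricter thresholds were counted for guidance and companion genes only, so that no share over all features stands beside them. Library size only gave 4, 12 and 7 and no filter on low counts 4, 11 and 7. Over all features they gave 1063 higher and 1339 lower, and 1258 higher and 1315 lower. Leaving out 1 library gave 4 higher each time, 5 to 10 lower, with 5 without si-NC 1 and without the libraries labelled si-DYRK1A 2 or 3, and 3 to 7 companion genes. Over all features these fits gave 854 to 1123 higher and 746 to 1087 lower. In a fit with a replicate block the counts were 4, 8 and 5, beside 1193 higher and 1076 lower over all features. Deviations of same-numbered libraries from their group means correlated at 0.0631, -0.024 and -0.00698. These values cannot show whether such libraries came from one preparation. No call of a guidance gene changed with the block. Genes that were not called changed sign in some settings, namely with summed counts Plxnc1 (0.033), Sema4c (0.0052) and Sema4d (0.048), and with library size only Unc5c (-0.0074). Leaving out 1 library gave log2 ranges of -0.21 to 0.31 for Robo2, -0.068 to 0.13 for Sema3g, -0.27 to 0.31 for Sema4c, -0.055 to 0.043 for Sema4d, -0.050 to 0.12 for Unc5a, -0.053 to 0.14 for Unc5b and -0.024 to 0.084 for Unc5c. The causes were not tested. Sema6a, Sema6b, Plxna2, Sema3c and Efna3 were called in some settings only. Library size only moved the median log2 fold change of all features from 0.002 to -0.0239. Low counts limit what could be seen for Slit1, Robo2, Ephb1 and Sema4c.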
